A study of Mus musculus with 2 samples.

Results

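Shh, Ptch1, Hhip, Gas1, Smo, Gli1, Gli2, Gli3 and Foxf1 are genes of the Hedgehog signalling pathway and 1 of its transcription factor targets. They were picked by gene symbol, with earlier results of these data known. All 9 had a value among the 21225 genes measured in right atria of mouse embryos. The groups were Shox2-/- embryos and wildtype embryos, both at E11.5 and in the CD-1 outbred line, with 1 array per genotype. Each array was hybridized with RNA pooled from the right atria of 6 embryos from 2 pregnancies. The Shox2-/- embryos lack the homeodomain transcription factor Shox2 throughout the body and not in the heart alone. The dissected tissue held the sinus venosus myocardium and the venous valves. With 1 pool per genotype, no error and no p-value can be given for any difference, and how much embryos, litters and dissections vary is unknown.

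Hedgehog ligands are secreted proteins that bind Ptch1 on neighbouring cells. Ptch1 otherwise keeps the membrane protein Smo inactive, and once Ptch1 is bound, Smo signals in the primary cilium and turns the Gli factors towards activation of their targets. Ptch1, Hhip and Gli1 are themselves switched on by the signal in many tissues, so that their transcripts are commonly read as its output. In the mouse embryo Shh is made by the epithelium of foregut and lung bud, and the surrounding mesenchyme responds, with Foxf1 among its target genes. Mesoderm behind the heart, which responds as well, contributes to the atria and the atrial septum.

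Values are the deposited log2 values, and each difference is Shox2-/- minus wildtype for 1 gene. A gene was counted as lower at a log2 difference of -0.4 or less and as higher at 0.35 or more, which are the size thresholds used in the study. Receptor genes of the nose served as a measure of background, and the 95th percentile of 1294 olfactory and vomeronasal receptors was 6.97 on the Shox2-/- array and 6.78 on the wildtype array. The targeted gene Shox2 had a value of 7.48 on the Shox2-/- array and 8.43 on the wildtype array, a difference of -0.95. The position of the Shox2 probes relative to the deletion is not stated, so that the remaining signal checks the label only in part. The arrays differed in other tissue markers and in Xist, the RNA of the inactive X chromosome in female cells, which had 6.60 on the Shox2-/- array and 10.13 on the wildtype array. Sex, litter, dissection and genotype cannot be told apart in these pools.

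Of the 9 genes, 3 were lower in Shox2-/- right atria, namely Foxf1, Hhip and Ptch1, and none was higher. Over all genes, 1.78% were lower and 1.13% were higher by the same thresholds. Because the 9 genes were chosen with earlier results of these data known, these counts are a description and not a test. With the level-dependent trend between both arrays removed, 2 of the 9 were lower, Foxf1 and Hhip, and 1 was higher, Gas1, against 1.5% lower and 0.952% higher over all genes. As deposited, the 9 genes had a median difference of -0.16, against 0.021 for all genes. Among the other 6 genes, Shh and Gli1 had values below 0 and Smo, Gas1, Gli2 and Gli3 values above 0, all short of the thresholds. The plot of values on both arrays shows that the 3 lower genes are 2 surface proteins that bind the ligand and a transcription factor, while the signal transducer Smo and the 3 Gli factors had differences between -0.16 and 0.18.

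**Figure D1:**
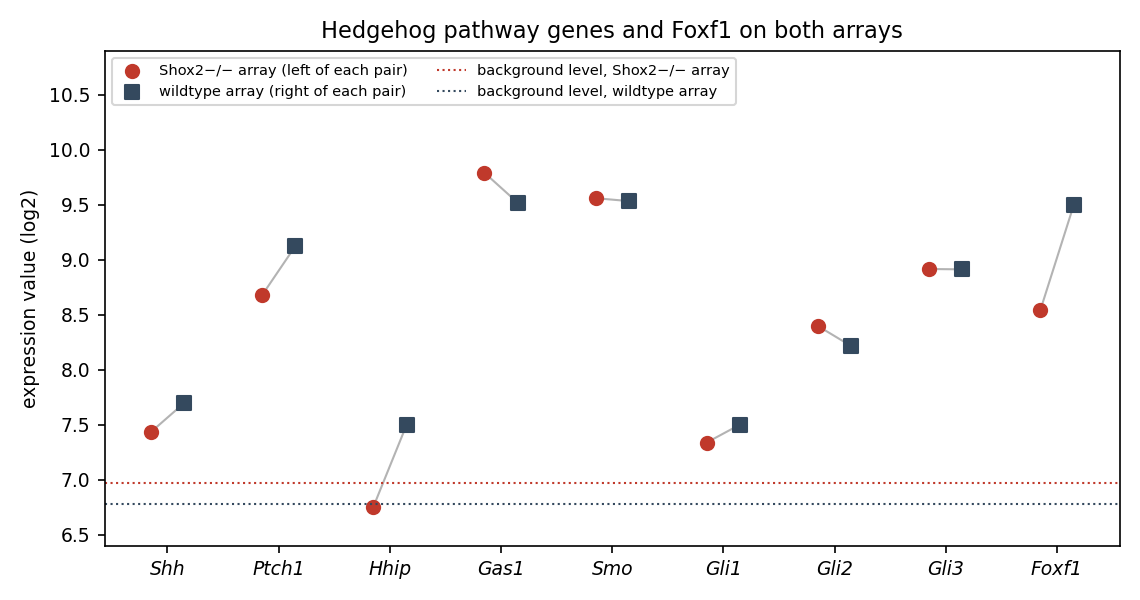
Log2 expression values (y axis) of the 9 genes (x axis), each as a pair of points with the Shox2-/- array on the left and the wildtype array on the right; each point is 1 array of pooled RNA, so there are no error bars, and dotted lines are the background level of each array. Foxf1 (8.54 and 9.49), Hhip (6.75 and 7.50) and Ptch1 (8.68 and 9.12) have the steepest lines, and Hhip on the Shox2-/- array is the only point under its background line.

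The ligand Shh (Entrez 20423) had a value of 7.43 on the Shox2-/- array and 7.70 on the wildtype array. The difference of -0.26 corresponds to 83.2% of the wildtype signal and did not reach the threshold. Shh lay above the background level on both arrays, so that a signal of the ligand was measured in each pool. Counted from the lowest difference of all genes, Shh was number 1425.

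Ptch1 (Entrez 19206), the receptor that holds Smo inactive, had a value of 8.68 on the Shox2-/- array and 9.12 on the wildtype array. This is a difference of -0.45, or 73.3% of the wildtype signal, at rank 253 from the lowest. Ptch1 is lower by little more than the threshold, and it fell short, at -0.36, once the level-dependent trend was removed. Ptch1 belongs to the top bin when genes are cut into 5 equal bins by mean level, and 3.49% of that bin were lower.

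Hhip (Entrez 15245) encodes a membrane protein that binds Hedgehog ligands and holds them off the receptor. It had a value of 6.75 on the Shox2-/- array and 7.50 on the wildtype array, a difference of -0.75 at rank 32 from the lowest. The Shox2-/- value lay below the background level of its array, so that this difference runs into background signal. Set against the lowest signal above background on the Shox2-/- array, 6.97, Hhip was at least 1.44-fold lower. Hhip belongs to bin 2 of the 5 from low to high level, in which 0.73% of genes were lower.

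Gas1 (Entrez 14451), a surface protein that presents the ligand to Ptch1 in the mouse, went the other way. It had a value of 9.79 on the Shox2-/- array and 9.52 on the wildtype array. The difference of 0.27 was the highest of the 9 genes, at rank 813 counted from the highest, and stayed below the threshold of 0.35. With the trend between the arrays removed it was 0.36, past that threshold. The proteins at the cell surface thus did not share a direction, with Ptch1 and Hhip lower and the co-receptor Gas1 at a value above 0.

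Smo (Entrez 319757), which carries the signal from the membrane, had a value of 9.56 on the Shox2-/- array and 9.53 on the wildtype array, a difference of 0.027. Gli3 (Entrez 14634), which acts mainly as a repressor when the pathway is silent, had 8.92 on the Shox2-/- array and 8.91 on the wildtype array. Its difference of 0.0031 changed sign, to -0.00072, when the arrays were centred on their medians. Both genes had nearly the same signal in the pools.

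Gli2 (Entrez 14633), the main activator of the pathway, had a value of 8.40 on the Shox2-/- array and 8.21 on the wildtype array, a difference of 0.18. Gli1 (Entrez 14632), an activator that is itself a target of the signal, had 7.34 on the Shox2-/- array and 7.50 on the wildtype array, a difference of -0.16. Neither reached a threshold. Of the transcripts that commonly mark the output of the pathway, Ptch1 and Hhip were thus lower by size, while Gli1 kept 89.3% of its wildtype signal. This contrast has limits, since Ptch1 fell short, at -0.36, with the trend removed. On the Shox2-/- array Hhip lay below background, and Gli1 did so too at the 99th percentile of receptor genes, 7.37.

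Foxf1 (Entrez 15227), a forkhead transcription factor of the mesenchyme of lung and gut, had the lowest difference of the 9 genes. Its value was 8.54 on the Shox2-/- array and 9.49 on the wildtype array, both above background. The difference of -0.96 corresponds to 51.6% of the wildtype signal, and only 15 of 21225 genes had a lower difference. Foxf1 stood at rank 16 and the deleted gene Shox2 at rank 19. With the trend between the arrays removed the difference of Foxf1 was -0.87. In pooled tissue, fewer cells that make Foxf1 and less Foxf1 RNA per cell cannot be told apart.

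**Figure D2:**
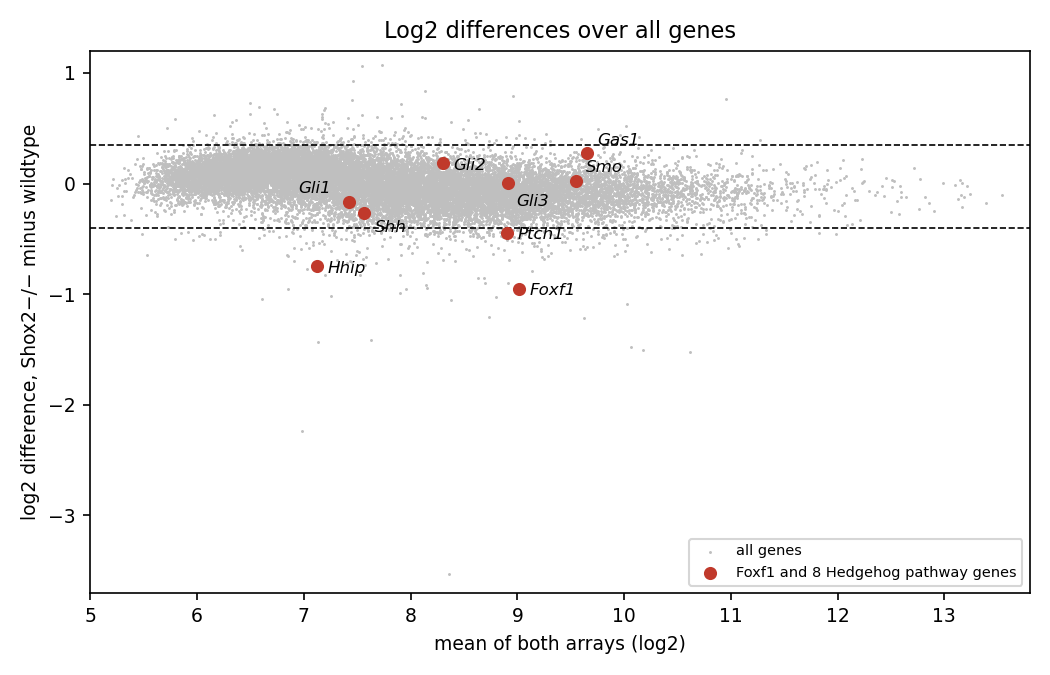
Log2 difference, Shox2-/- minus wildtype (y axis), against the mean log2 value of both arrays (x axis), with 1 point per gene for all 21225 genes, the 9 genes in red and the size thresholds of 0.35 and -0.4 as dashed lines. Foxf1 and Hhip lie below the cloud of genes at their level, Ptch1 lies at its lower edge, and the other 6 genes lie between the thresholds.

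The differences of all genes depended on their level, with a median of 0.11 in bin 2 and -0.085 in the top bin. Foxf1, Ptch1, Smo, Gas1 and Gli3 belong to the top bin. Relative to the genes of like level, Foxf1 and Ptch1 were therefore a little nearer to the middle. Hhip, in bin 2, was further from the middle, at -0.83 with the trend removed against -0.75 as deposited. Its Shox2-/- value lay below background, so that both differences run into background signal.

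Because the lower genes include known targets of Gli factors, the promoter sequences of the members were searched for the letters that Gli factors prefer. RefSeq promoter sequences on GRCm38.p6 matched 6 of the 9 genes, and 250 bases before the start were searched on both strands. Foxf1, Shh and Gli1 had no entry. The preferred 9 letters GACCACCCA were in none of the 6 sequences and in 0.225% of 32851 sequences of all genes. The shorter letters CCACCC, which are contained in the 9 letters, were in 4 of the 6 and in 28.1% of all sequences. The 30 bases around them are shown because they set Hhip, which was lower, beside members that were not past a threshold. They are written 5′ to 3′ on the strand of the gene, and capitals mark CCACCC or its reverse complement GGGTGG.
Hhip, chr8:80058149-80058178, minus strand: cgcagccggaggCCACCCtgggccccggcg
Gli2, chr1:119053801-119053830, minus strand: cctccaGGGTGGtgtccccCCACCCccagc
Gli3, chr13:15463541-15463570, plus strand: gggacggggcggGGGTGGgggcgcgcgagg
Smo, chr6:29735323-29735352, plus strand: tcccgaatacccCCACCCcagccccttcgg
In Hhip the letters began 158 bases before the start and in Smo 162 bases before it. In Gli3 they began 170 bases before the start, and in Gli2 they occurred 2 times, 205 and 192 bases before it. Ptch1, which was lower, and Gas1, which was not, held neither motif, so that the presence of CCACCC did not follow the direction on the arrays. The Ptch1 start used here lies 7725 bases inside the RefSeq gene, and that of Gli2 lies 786 bases from the RefSeq gene start. Other starts of these genes were not searched. The homeodomain letters TAATTA were in none of the 6 sequences and in 4.84% of all. These matches describe letters only and not sites of binding.

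The wider pathway was described with lists of 48 genes by role, of which 45 had a named value. Without the 9 genes above, 36 were measured, of which none was lower and 1 was higher, with a median difference of 0.034. The exception was the secreted Wnt ligand gene Wnt5a, with 8.70 on the Shox2-/- array and 8.34 on the wildtype array, a difference of 0.37, which is short of a threshold of 0.4. With 1.78% lower and 1.13% higher over all genes, counts of 0 and 1 among 36 genes are near the background.

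Of 7 genes of ligands and their release, 6 had a difference above 0 and Shh was the exception, while 45.1% of all genes had a difference below 0. The median of the 7 genes was 0.14 as deposited and 0.090 with the level-dependent trend removed. Ihh, the ligand known from cartilage and gut, had 7.67 on the Shox2-/- array and 7.45 on the wildtype array. Dhh, the ligand known from testis and peripheral nerve, had 7.29 on the Shox2-/- array and 7.15 on the wildtype array. Scube1, of a family of secreted proteins of which some release Hedgehog ligands from the cell, had the highest difference of the list, 0.28, and none was past a threshold.

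Beside Ptch1, Hhip and Gas1, the co-receptor genes Cdon and Boc were measured. Cdon had 9.09 on the Shox2-/- array and 9.03 on the wildtype array, a difference of 0.064. Boc had 8.35 on the Shox2-/- array and 8.52 on the wildtype array, a difference of -0.17. The list of 7 reception genes thus held 2 lower genes, Ptch1 and Hhip of the 9 genes, against 1.78% lower over all genes. Its other 5 members lay between -0.17 and 0.27.

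Smo and 16 further genes of signal transduction had a median difference of -0.031, and none of the 17 was past a threshold. They ran between -0.27 for Btrc, part of a ubiquitin ligase that acts on Gli proteins, and 0.12 for Kif7, a kinesin of the cilium tip. Sufu, which holds Gli proteins inactive, had 8.86 on the Shox2-/- array and 8.83 on the wildtype array. Over all genes 1.78% were lower and 1.13% were higher, so that a count of 0 among these 17 genes is near the background.

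Of 14 measured target genes, Foxf1, Hhip and Ptch1, all from the 9 genes, were lower, Wnt5a was higher and 10 were neither. The list's median difference was 0.0036, close to that of all genes. Without any of the 9 genes, 10 target genes remained, of which none was lower and 1 was higher. Of these, 7 had a difference above 0, and their median was 0.017. Over all genes 1.78% were lower and 1.13% were higher. Osr1, a zinc finger factor of lung and posterior heart mesoderm, had 9.92 on the Shox2-/- array and 10.21 on the wildtype array, a difference of -0.29. The cell cycle genes Ccnd1 and Mycn had differences of 0.012 and -0.0049, and Bmp4, a growth factor gene, had 0.014. Of the 14 genes, 7 had a difference above 0 and 7 below it, and the list was written with earlier results of these data known.

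Of 22 genes of the primary cilium, 1 was lower, none was higher, and 17 had a difference below 0, with a median of -0.11. Over all genes 1.78% were lower and 45.1% had a difference below 0. With the level-dependent trend removed, the median of the cilium genes was -0.080. Cep290, a protein of the ciliary transition zone, had 6.81 on the Shox2-/- array and 7.36 on the wildtype array. The Shox2-/- value lay below background, and against the lowest signal above background Cep290 was at least 1.31-fold lower, a bound of 0.39 on the log2 scale that does not reach the threshold. The next lowest was Bbs7, of a complex that carries proteins within the cilium, with a difference of -0.32.

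**Figure D3:**
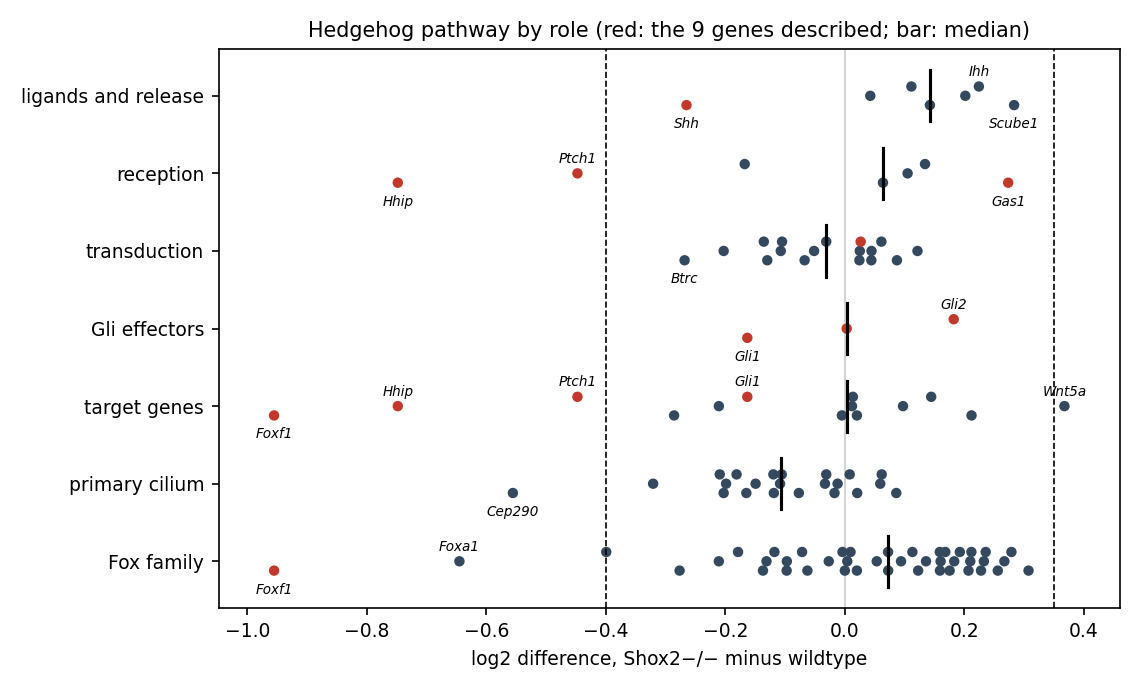
Log2 difference, Shox2-/- minus wildtype (x axis), of each measured gene in 6 lists of the pathway and in the Fox family (rows), with the 9 genes in red, the median of each list as a black bar and the size thresholds as dashed lines; vertical offsets within a row only separate points. Foxf1, Hhip and Ptch1 lie left of the lower threshold while the medians of all 7 rows lie between -0.11 and 0.14.

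Among the 43 measured genes of the Fox family, Foxf1 had the lowest difference. Foxa1, a factor of foregut and lung epithelium, was the other lower gene, with 7.59 on the Shox2-/- array and 8.23 on the wildtype array, a difference of -0.64. Foxp2, which is known from lung epithelium and brain, had -0.40, a little short of the threshold, and passed it when the arrays were centred on their medians. The nearest relative of Foxf1, Foxf2, had 7.12 on the Shox2-/- array and 7.33 on the wildtype array, a difference of -0.21. The other 42 members had a median of 0.083, none was higher, and 28 had a difference above 0. Over all genes 1.78% were lower and 1.13% were higher.

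The genes that neighbour Foxf1 in the RefSeq annotation did not share its difference. The 4 nearest measured genes on each side ran between -0.13 and 0.24, and none of these 8 was past a threshold. Foxc2 and Foxl1, forkhead genes beside Foxf1, had differences of 0.17 and 0.020. Mthfsd, the first measured gene after Foxf1, had 8.12 on the Shox2-/- array and 8.25 on the wildtype array, and Irf8, the first before it, had 7.42 on the Shox2-/- array and 7.38 on the wildtype array. Between Foxf1 and Irf8 lie 9 annotated genes that were not analysed here.

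With 2 arrays the pattern of a gene is 1 difference, so that likeness to Foxf1 was measured as the gap between differences. The 6 protein-coding genes with the smallest gap were Zfp976, Trf, Shox2, Ambp, Fgb and Tbx4, with gaps between 0.0012 and 0.042. Trf, Ambp and Fgb encode plasma proteins of the liver. Tbx4, a T-box factor of lung mesenchyme and hindlimb, had 7.69 on the Shox2-/- array and 8.60 on the wildtype array. Zfp976 lay below background on the Shox2-/- array.

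Foxf1 and Shh mark tissue that borders the atrium, so that markers of this and other tissue were set beside them. Leaving out Foxf1, 2 of 13 markers of lung and foregut mesenchyme were lower, Tbx4 and Wnt2, and none was higher, with a median difference of -0.14. Over all genes 1.78% were lower and 1.13% were higher. Wnt2, a growth factor gene of lung mesenchyme and posterior heart mesoderm, had 8.05 on the Shox2-/- array and 8.49 on the wildtype array, a difference of -0.44. With the trend removed Wnt2 was at -0.38, short of the threshold, which left 1 lower gene, Tbx4. The mean log2 value of these 13 genes was 8.31 on the Shox2-/- array and 8.47 on the wildtype array, and all 13 lay above background on both. Fgf10, the growth factor of the mesenchyme at the lung tip, had a difference of 0.19, and Tbx5, which atrial muscle also makes, had -0.042.

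Leaving out Shh, 4 of 17 markers of lung and foregut epithelium were lower and none was higher, with a median of -0.12. Over all genes 1.78% were lower and 1.13% were higher. The lower markers were Cldn6, a tight junction gene of embryonic epithelium, with -0.71, Foxa1 with -0.64, Nkx2-1, the defining factor of lung and thyroid epithelium, with -0.41, and Sox2, a factor of foregut and airway epithelium, with -0.40. Of the 17, 5 had a difference above 0, among them Cldn7 with 0.16 and Cdh1 with 0.11, both above background on both arrays. Nkx2-1 had 7.20 on the Shox2-/- array and 7.61 on the wildtype array, above background on both. Sox2 had 6.87 on the Shox2-/- array, below background, and 7.27 on the wildtype array, and was at least 1.23-fold lower. This bound of 0.30 on the log2 scale is short of the threshold, so that 3 of the 4 calls do not rest on background signal at the background level used. At the 99th percentile of receptor genes, Nkx2-1 also lay below background on the Shox2-/- array. Its bound was then 0.24 on the log2 scale, which is short of the threshold too. The mean log2 value of the 17 genes was 7.47 on the Shox2-/- array and 7.63 on the wildtype array. At the background level used, 5 of them lay below background on the Shox2-/- array and 2 on the wildtype array. The part of lung and foregut tissue in the differences of Foxf1, Hhip, Ptch1 and Shh was not tested.

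**Figure D4:**
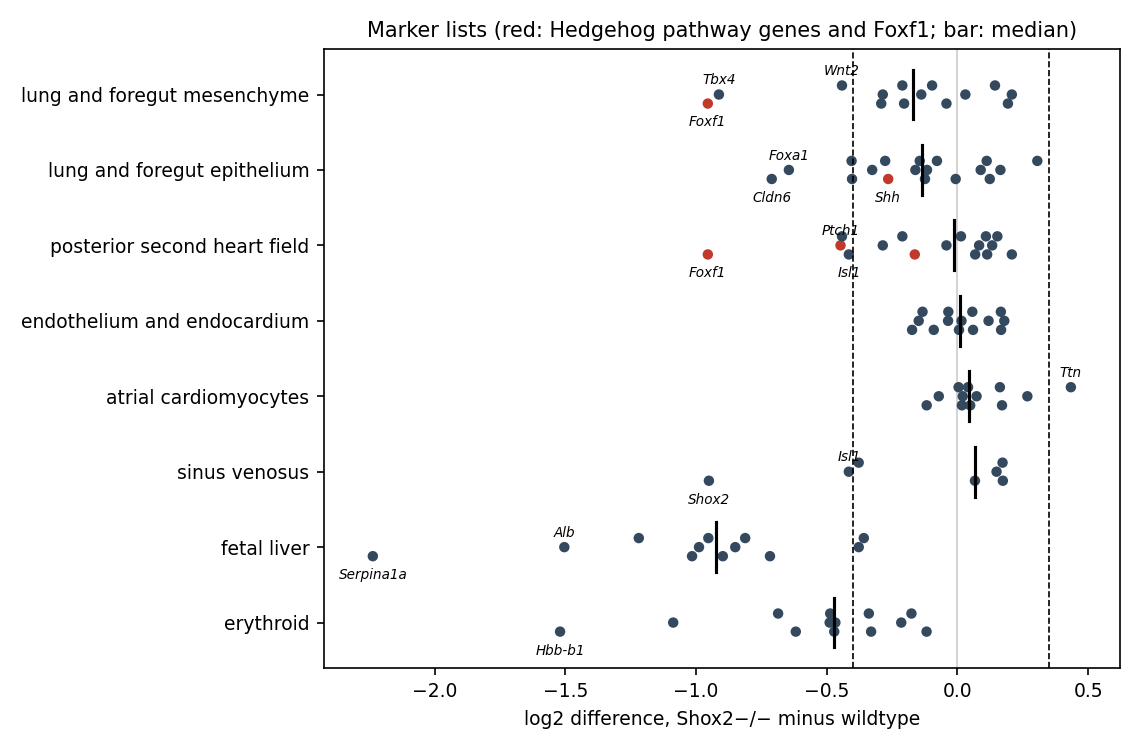
Log2 difference, Shox2-/- minus wildtype (x axis), of each measured gene in 8 lists of marker genes (rows), with the Hedgehog pathway genes and Foxf1 in red, the median of each list as a black bar and the size thresholds as dashed lines; vertical offsets within a row only separate points. The lists of lung and foregut mesenchyme and epithelium have medians of -0.17 and -0.13 with Foxf1 and Shh included, and those of fetal liver and red blood cells have medians of -0.93 and -0.47.

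In the posterior second heart field, the mesoderm behind the heart that responds to Hedgehog ligands in the mouse, the picture was mixed. Apart from Foxf1, Ptch1 and Gli1, 2 of 13 genes were lower, Wnt2 and the LIM homeodomain gene Isl1, and none was higher. Over all genes 1.78% were lower and 1.13% were higher. Isl1 had 7.53 on the Shox2-/- array and 7.95 on the wildtype array. With the trend removed only Isl1 was lower, at the threshold with -0.40. The 13 genes had a median difference of 0.068, and Gata4, Aldh1a2 and Nr2f2, which also act in this mesoderm, had differences of 0.11, 0.068 and 0.15.

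Of 7 markers of the sinus venosus, the part of the atrium that makes Shox2, Shox2 and Isl1 were lower and none was higher, with a median of 0.067. Over all genes 1.78% were lower and 1.13% were higher. Shox2 is the deleted gene and Isl1 a gene that the study took from these same arrays, so that these calls add nothing about the tissue. For Isl1 the study also reported less RNA by qRT-PCR in another pool of right atria. By in situ hybridization it saw no Isl1 transcripts in the sinoatrial node of Shox2-/- hearts. Smoc2, with -0.38, fell a little short of the threshold, and 4 of the 7 lay above 0. Tbx18 and Tbx3, T-box factors of the sinus venosus and sinoatrial node, had differences of 0.17 and 0.15, and the pacemaker channel gene Hcn4 had 0.067.

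None of 14 markers of endothelium and endocardium, in which Foxf1 is made in some organs, reached a threshold, with a median of 0.011. Of 12 markers of atrial cardiomyocytes 1 was higher, Ttn with 0.43, against 1.13% of all genes, and the median was 0.045. All 12 lay above background on both arrays, with a mean log2 value of 10.93 on the Shox2-/- array and 10.84 on the wildtype array, as the label of the tissue asks. Neither list held a lower gene, and with 1.78% lower over all genes this absence is near the background. The medians of both lists lay above 0, while Foxf1, Hhip and Ptch1 lay below it.

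As deposited, most markers of fetal liver and of red blood cells were lower on the Shox2-/- array, against 1.78% of all genes. Of 12 liver markers 10 were lower, with a median difference of -0.93 and a mean log2 value of 7.64 on the Shox2-/- array and 8.63 on the wildtype array. Of 13 erythroid markers 8 were lower, with a median of -0.47 and a mean log2 value of 10.62 on the Shox2-/- array and 11.16 on the wildtype array. The difference of Foxf1 was thus of the size of the median liver marker, and Hhip and Ptch1 lay between 0 and that median. With the trend removed, all 12 liver markers but only 6 of the 13 erythroid markers were lower, against 1.5% of all genes. The globin genes differed among themselves. Hbb-b1 and Hbb-bs had differences of -1.52 and -1.09, while Hba-x, Hbb-y and Hbb-bh1 had -0.21, -0.18 and -0.12, short of the threshold. The part of liver tissue and blood in the lower values of the 9 genes was not tested.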

How the data were processed

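Right atria of Shox2-/- and wildtype embryos were compared with 1 GeneChip Mouse Gene 1.0 ST array each. The deposited log2 values, 1 per gene and array, were computed by the authors in JMP Genomics 4.0. There the perfect-match signals underwent a log transformation and quantile normalization, and a log-linear model gave a value per Entrez gene as defined by custom CDF version 14. That the base is 2 was read off the range of 5.09 to 13.59 and the study's ratios. Neither a background correction nor a genome build is stated. The number of arrays limits the precision.

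The platform annotation gave 1 symbol for 20239 of 21225 genes and several for none. The other 986 entered the counts without a name. RefSeq (GRCm38.p6) supplied current symbols by Entrez number. Differences were counted at -0.4 and 0.35, without a test. Alternatives were centring on array medians, removal of a lowess trend (span 0.3, 3 iterations), which was tested on simulated data, other thresholds and other background percentiles. The genes, lists and tests were chosen with earlier results of these data known. Named are the 9 genes, list members past a threshold or with the largest differences, neighbours of Foxf1 and the 6 genes most like it. Ihh, Dhh, Cdon, Boc, Sufu, Tbx18, Tbx3, Hcn4, Ccnd1, Mycn, Bmp4, Bbs7, Foxp2, Foxf2, Fgf10, Tbx5, Gata4, Aldh1a2 and Nr2f2 are further list members named for their role after their values were seen. Cdh1, Cldn7, Smoc2, Hba-x, Hbb-y and Hbb-bh1, which were short of a threshold, were also named after their values were seen. Computations ran in Python 3.11.15 (pandas 2.3.3, numpy 2.4.6, statsmodels 0.14.6).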

Additional observations from a re-analysis of the deposited data

How the results depend on the processing

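At a 2-fold threshold 0 of the 9 genes, 0 of the 45 genes of the wider pathway and 0 of the 43 Fox genes were past it, and Foxf1 with -0.96 fell short. With the level-dependent trend removed, 3 of the 9 genes were past a threshold as before, but they were Foxf1, Hhip and Gas1 (0.36), since Ptch1 (-0.36) no longer was. Centring on array medians and a threshold of 0.4 both ways left Foxf1, Hhip and Ptch1 as the genes past a threshold, while Wnt5a of the wider pathway no longer was at 0.4. The restriction to genes above background, for which 1 array sufficed, removed none of the 9 and so tests nothing for them; Hhip entered through its wildtype value. With the trend removed Wnt2 (-0.38) was no longer lower. At the 99th percentile of receptor genes, Hhip and Gli1 of the 9 genes lay below background on the Shox2-/- array. Hhip was then at least 1.09-fold lower, while at the 90th percentile it was at least 1.65-fold lower. The epithelial marker Nkx2-1 also lay below background on the Shox2-/- array at the 99th percentile, and was then at least 1.18-fold lower. No paired analysis was possible because each genotype has a lone array, which also leaves no replicate to omit.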
